A study of Mus musculus with 6 samples.

Results

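Cyp2b10 and Sult1d1 are genes of drug and xenobiotic metabolism, and their mRNA levels were followed in livers of mice given GW4064 or vehicle. Their members were every probe set paired with exactly one of these symbols in the list of altered probe sets that the authors deposited. This gave 5 probe sets, 3 for Cyp2b10 and 2 for Sult1d1, of 22626 tested, and 2 of the 87 genes that the list names. The list holds probe sets that passed a fold and p-value threshold in the authors' comparison of these same mice. The differences between the groups below are therefore descriptions of selected probe sets, and their p-values are not independent evidence of a response. A probe set of either gene that did not pass that threshold could not enter.

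All mice were adult wild type C57BL/6J animals. GW4064, a synthetic agonist of the bile acid receptor FXR, was given to 3 mice at 100 mg per kg body weight, and vehicle alone to 3 others. Each mouse received 3 doses, on the first day at 8 am and 6 pm and on the next at 8 am, and the liver was taken 2 hours later. Per the study's methods both groups were fasted overnight from the second dose, so the vehicle livers are fasted livers as well. One array was hybridized for each mouse. None of 31 marker genes of liver cell types was paired with a probe set, so the tissue label was not checked. In whole liver RNA, a change in the number of cells that express a gene and a change in RNA per cell cannot be told apart.

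Cytochrome P450 enzymes oxidize drugs, steroids and other lipophilic compounds in phase 1 of their metabolism, and transferases such as the sulfotransferases then attach polar groups in phase 2. Cyp2b10 is the phenobarbital-inducible P450 of mouse liver and the best known target of the constitutive androstane receptor (CAR), a nuclear receptor that pairs with RXR, as FXR does. Its distal enhancer, through which CAR acts, lies further upstream than the promoter sequence shown here. Sult1d1 is a cytosolic sulfotransferase that transfers sulfate to catecholamines and other phenolic compounds in the mouse.

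The stretches just upstream of the transcription starts are shown because both genes had higher levels after treatment with an agonist of a DNA-binding receptor. Each is 250 bases long, from RefSeq on build GRCm38.p6, and runs up to the base before the start. The Cyp2b10 stretch is chr7:25897408-25897657 on the plus strand and the Sult1d1 stretch is chr5:87569007-87569256 on the minus strand. Capitals mark matches, on either strand, to the TATA-like hexamer CATAAA, the xenobiotic response core GCGTG and the variant nuclear receptor half-site AGTTCA.
Cyp2b10: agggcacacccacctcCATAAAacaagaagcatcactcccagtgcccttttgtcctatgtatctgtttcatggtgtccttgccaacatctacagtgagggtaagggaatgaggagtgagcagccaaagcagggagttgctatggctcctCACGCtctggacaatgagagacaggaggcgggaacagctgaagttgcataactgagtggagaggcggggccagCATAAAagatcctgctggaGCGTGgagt
Sult1d1: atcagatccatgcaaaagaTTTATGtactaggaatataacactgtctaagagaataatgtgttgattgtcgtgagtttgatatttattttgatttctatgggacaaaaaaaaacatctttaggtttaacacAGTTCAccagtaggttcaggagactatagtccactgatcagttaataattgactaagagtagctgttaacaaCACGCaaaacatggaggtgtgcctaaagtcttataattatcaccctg

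Motifs were searched in windows that also held the 50 bases after the start, and their frequency was taken over 32817 such windows of mouse genes. The consensus half-site AGGTCA, shared by FXR, CAR and RXR, had no match in the windows of Cyp2b10 and Sult1d1 and was found in 16.3% of all windows. The other Cyp2b genes of mouse chromosome 7 with a window, Cyp2b9, Cyp2b13, Cyp2b19 and Cyp2b23, each held it, with its first base at -138, -138, -121 and -164 from the start. The FXR-type inverted repeat AGGTCANTGACCT and the CAR-type direct repeat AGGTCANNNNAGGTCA were in 3 and 5 of all windows and in neither member. Sult1d1 held the variant AGTTCA at -119, as did 14.0% of windows. CATAAA lay at -28 and -234 in Cyp2b10 and at -231 in Sult1d1 (11.9% of windows), and GCGTG at -9 and -101 in Cyp2b10 and at -47 in Sult1d1 (32.4% of windows). TATAAA, found in 13.6% of windows, was absent from that of Cyp2b10, and its match in Sult1d1 began at base 6 after the start. Positions are those of a match's first base on the gene's own strand. No match in these windows overlaps another, and the matches describe letters, not binding.

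Cyp2b10, on chromosome 7 (band A3), was higher in all 3 GW4064 livers than in any vehicle liver on each of its 3 probe sets. Values are log2 expression levels. On probe set 1451787_at, the brightest of the 3, the vehicle livers were at 7.61, 7.34 and 7.35 and the GW4064 livers at 9.33, 8.78 and 8.35 for replicates 1, 2 and 3. The nearest mice of the groups were apart by 0.74. The group means were 7.43 ± 0.15 for vehicle and 8.82 ± 0.49 for GW4064 (SD, n = 3 each), which is 2.62-fold higher, or 1.39 on the log2 scale (SE 0.22). The SE of a difference between the groups is limma's moderated one, which borrows spread from all probe sets. From the 6 values of 1451787_at alone it was 0.30. On 1425645_s_at the vehicle livers were at 7.73, 7.08 and 7.14 and the GW4064 livers at 9.46, 8.85 and 8.39. The groups were apart by 0.66, and the difference of 1.58 (SE 0.27) corresponds to 3.00-fold. On 1422257_s_at the vehicle livers were at 7.65, 6.93 and 7.26 and the GW4064 livers at 9.26, 8.73 and 8.25. This gave 1.47 (SE 0.26) or 2.76-fold, with a distance of 0.60 between the groups. The suffix _s_at marks probe sets that may detect transcripts of more than one gene. The Cyp2b genes are close relatives, and signal of another Cyp2b gene in these probe sets cannot be told apart from that of Cyp2b10.

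Sult1d1, on chromosome 5 (band E1), also lay higher in every GW4064 liver, by a smaller amount and with little room between the groups. On probe set 1448973_at the vehicle livers were at 11.21, 10.86 and 10.68 and the GW4064 livers at 11.44, 11.65 and 11.48. The group means were 10.91 ± 0.27 for vehicle and 11.52 ± 0.11 for GW4064 (SD, n = 3 each), which is 1.52-fold higher, or 0.61 on the log2 scale (SE 0.14). On 1418138_at the vehicle livers were at 9.80, 9.25 and 9.26 and the GW4064 livers at 9.85, 10.17 and 10.07. The mean was 1.51-fold higher after GW4064, or 0.60 on the log2 scale (SE 0.16). Here GW4064 replicate 1 exceeded vehicle replicate 1 by only 0.06, which is less than the SD of either group (0.31 in vehicle, 0.16 in GW4064).

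**Figure D1:**
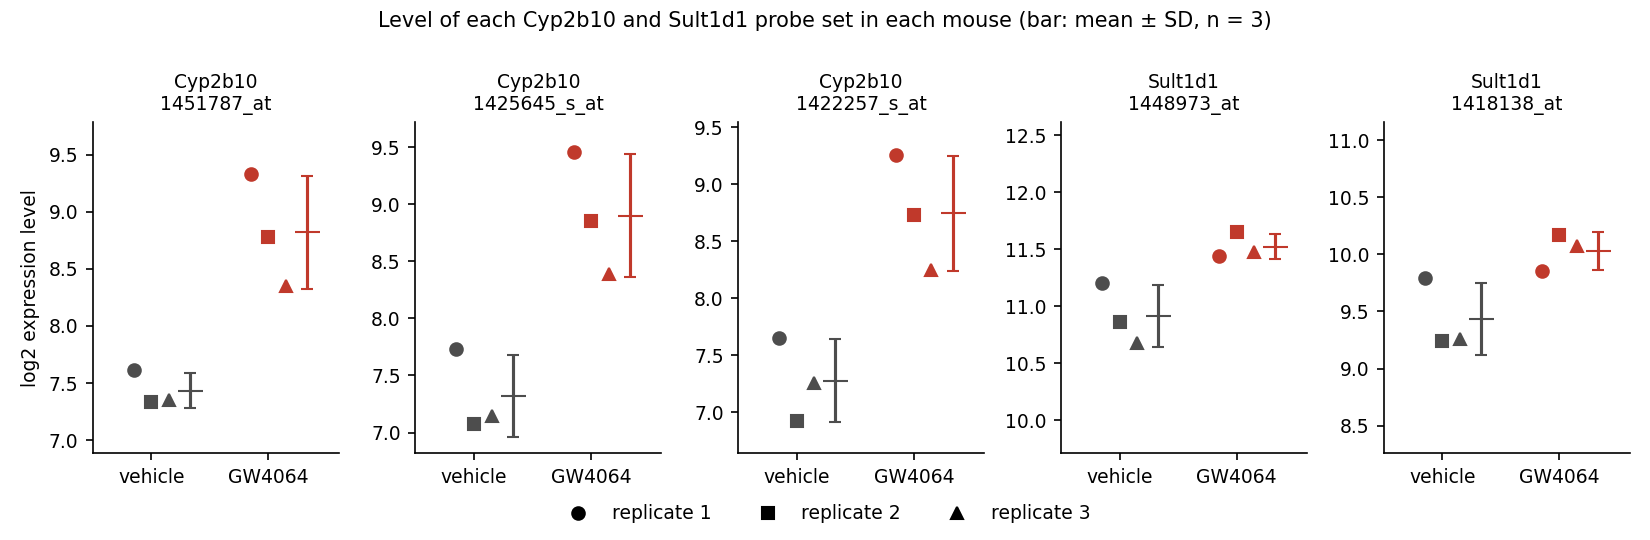
Log2 expression level (y axis, the same span in each panel) of the 5 probe sets in each mouse, vehicle in grey and GW4064 in red, with marker shape for the replicate number and bars for mean ± SD (n = 3). All 3 Cyp2b10 panels show a gap of 0.60 to 0.74 between the groups, whereas the Sult1d1 groups are 0.23 and 0.06 apart.

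None of the 5 differences passed the threshold after adjustment over all probe sets. With limma the adjusted p was 0.417 for each of the 3 Cyp2b10 probe sets, and 0.463 and 0.492 for the Sult1d1 probe sets. An adjusted p under 0.05 was reached by 0 of 22626 probe sets (0%) with limma and by 0 with the methods' unpaired test, while 1985 and 1427 had an unadjusted p under 0.05. All 5 member probe sets met a fold of at least 1.5 with an unadjusted p under 0.05, as did 0.632% of all tested probe sets in the higher direction. All 5 were free of overlap between the groups, as were 6.7% in that direction. The authors' list was chosen by a threshold of this kind, so these counts follow from the choice of members. By size of increase the Cyp2b10 probe sets ranked 23, 30 and 36 among all probe sets and the Sult1d1 probe sets 145 and 156. The median difference over all tested probe sets was -0.003. None of the members was dim. Their mean levels lay at the percentiles 77.1 to 78.3 for Cyp2b10 and 90.8 and 96.5 for Sult1d1. Without GW4064 replicate 3 the 3 Cyp2b10 probe sets reached adjusted p-values of 0.015, 0.036 and 0.041 (limma), where over all omissions of 1 mouse they ran from 0.015 to 0.779. That mouse had the lowest Cyp2b10 level of the treated mice on each of them, and leaving it out brought 70 probe sets of the whole array past the threshold.

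**Figure D2:**
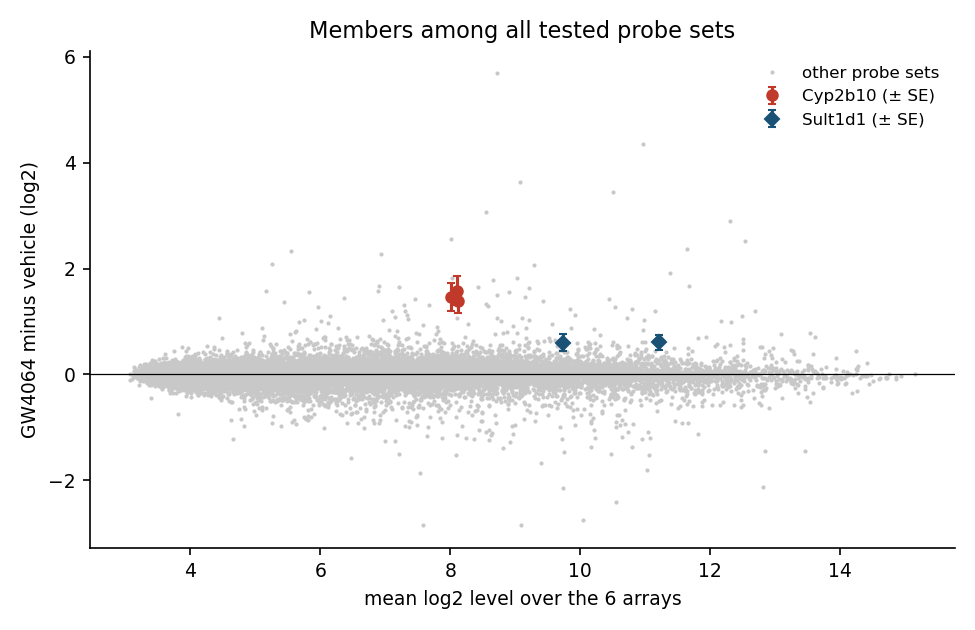
Difference between GW4064 and vehicle (y axis, log2) against the mean log2 level over the 6 arrays (x axis) for every tested probe set in grey, with Cyp2b10 in red and Sult1d1 in blue (bars: SE). Cyp2b10 lies at 1.39 to 1.58 and Sult1d1 at 0.60 and 0.61, against a median of -0.003 for all probe sets.

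The probe sets of Cyp2b10 were then compared with each other, to see whether they gave the same difference. For each array the value of one probe set was subtracted from that of another, and the 2 groups were compared on this quantity by an exact permutation test (two-sided), whose smallest possible p with 3 against 3 mice is 0.1. The level of one probe set says nothing about that of another, so only the change of this quantity between the groups was compared. The difference of 1425645_s_at exceeded that of 1422257_s_at by 0.12 (SE 0.08 from the within-array values alone, exact permutation p = 0.3, adjusted over 3 pairs 0.45) and that of 1451787_at by 0.20 (SE 0.12, exact permutation p = 0.3, adjusted 0.45). That of 1422257_s_at exceeded that of 1451787_at by 0.08 (SE 0.13, exact permutation p = 0.8, adjusted 0.8). Single mice moved these gaps by over 1.5 times. The first fell to 0.04 without vehicle replicate 3, the second lay at 0.12 without vehicle replicate 2 and at 0.31 without vehicle replicate 1, and the third ran from -0.048 to 0.18 without 1 mouse. These gaps do not show that the probe sets respond alike. With 3 mice per group no p under 0.05 was possible, so the test could not have called the responses unequal. All 3 probe sets also had to pass the authors' threshold on these mice to be members.

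The values behind these gaps ranged more widely over the vehicle livers than over the GW4064 livers. For 1422257_s_at minus 1451787_at, the GW4064 livers were at -0.08, -0.05 and -0.09, whereas the vehicle livers were at 0.04, -0.41 and -0.09. For 1425645_s_at minus 1451787_at the GW4064 livers were at 0.13, 0.08 and 0.04 and the vehicle livers at 0.12, -0.26 and -0.21. For 1425645_s_at minus 1422257_s_at the GW4064 livers were at 0.20, 0.13 and 0.14 and the vehicle livers at 0.08, 0.15 and -0.12. Groups of 3 are too small to compare these spreads, and they were not tested. The vehicle livers spanned 0.28 on 1451787_at and 0.66 and 0.72 on the probe sets with the suffix. Vehicle replicate 2 set the pair of smallest difference, and without it 1422257_s_at gave a difference 0.05 below that of 1451787_at.

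**Figure D3:**
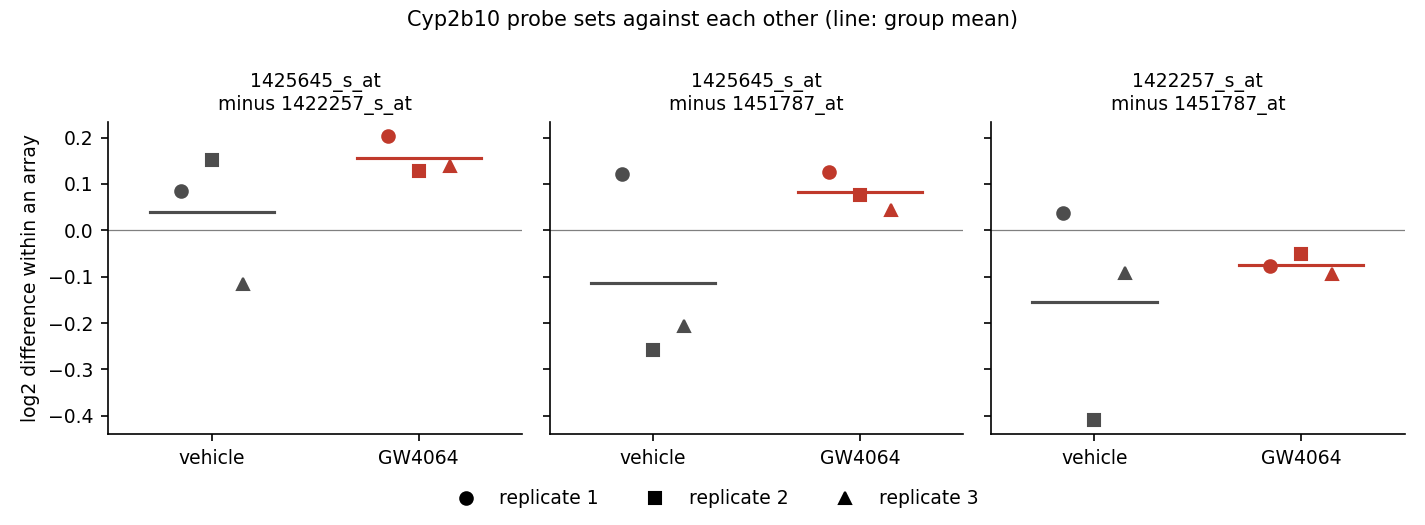
Difference between 2 Cyp2b10 probe sets within each array (y axis, log2) for the 3 pairs, vehicle in grey and GW4064 in red, with marker shape for the replicate number and lines for group means. The GW4064 mice lie within 0.08 of each other in each panel, and the vehicle mice spread over up to 0.45.

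The 2 Sult1d1 probe sets gave nearly the same difference, 0.01 apart. In vehicle mice the value of 1448973_at minus 1418138_at was 1.41, 1.61 and 1.41, and in GW4064 mice it was 1.59, 1.48 and 1.41, so the groups overlapped. Cyp2b10 differed between the groups by more than Sult1d1. Over the 6 pairs of a Cyp2b10 and a Sult1d1 probe set, the gap between the differences ran from 0.78 to 0.99. The smallest was that of 1451787_at and 1448973_at (SE 0.32), the largest that of 1425645_s_at and 1418138_at (SE 0.38). These SEs are from the within-array values alone, not limma's moderated ones. In each pair the within-array value was higher in all 3 GW4064 mice than in all 3 vehicle mice, and the exact permutation p was 0.1, the smallest that the design allows (adjusted over 6 pairs 0.1). The threshold of 0.05 could therefore not be reached. These pairs share mice and probe sets and are not 6 separate results. The gap moved by over 1.5 times in 5 of the 6 pairs without GW4064 replicate 1, the mouse with the highest Cyp2b10 level, to 0.62 for the pair of the largest gap and 0.44 for 1451787_at and 1418138_at.

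The treated mice differed from each other in Cyp2b10 by as much as some differed from vehicle. Relative to the vehicle mean, replicate 1 was 3.73- to 4.41-fold higher over the 3 probe sets, replicate 2 was 2.54- to 2.90-fold higher and replicate 3 was 1.88- to 2.10-fold higher. The probe sets agreed on this order of the mice. The GW4064 livers spanned 0.99 to 1.07 on the log2 scale and the vehicle livers 0.28 to 0.72. Sult1d1 did the opposite, with 0.21 and 0.32 among GW4064 and 0.53 and 0.55 among vehicle livers. Its GW4064 replicate 1 was the lowest treated mouse, 1.44- and 1.33-fold above the vehicle mean, and replicate 2 the highest at 1.66- and 1.67-fold. Groups of 3 were too small to compare spreads, and no test of them was made. In vehicle livers, replicate 1 had the highest level on all 5 probe sets, which belong to 2 genes on the same arrays. It lay 0.18 to 0.42 above the vehicle mean for Cyp2b10 and 0.29 and 0.36 above it for Sult1d1. Of the 48 listed genes higher in GW4064 livers, by their brightest probe set, 17 had this mouse as the highest vehicle mouse.

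**Figure D4:**
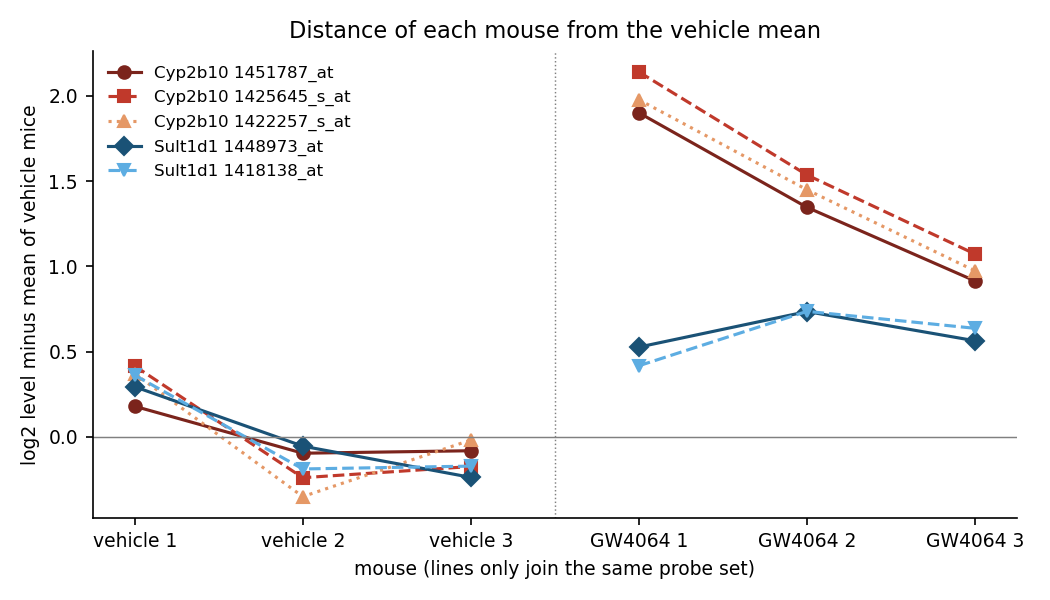
Log2 level minus the mean of the vehicle mice (y axis) in each mouse (x axis) for the 5 probe sets. The red Cyp2b10 lines lie at 1.90 to 2.14, 1.35 to 1.54 and 0.91 to 1.07 in GW4064 replicates 1, 2 and 3, while the blue Sult1d1 lines lie at 0.42 to 0.53, 0.73 to 0.74 and 0.56 to 0.64.

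The order of the treated mice in Cyp2b10 was the common order among the listed genes. Of the 48 genes of the authors' list with higher levels in GW4064 livers, taken by their brightest probe set, 28 (58.3%) had replicate 1 highest and replicate 3 lowest, Cyp2b10 among them. The same order held for the whole profile. The first principal component of all tested probe sets, with 48.3% of the variance, placed GW4064 replicates 1, 2 and 3 at 36.8, 12.5 and -5.73 and the vehicle mice between -15.1 and -13.9. The part of this overall difference between mice in the Cyp2b10 result was not tested. Sult1d1 was 1 of 3 of the 48 genes in which GW4064 replicate 1 was the lowest treated mouse. The other two, looked up after these values were seen, were the deubiquitinase gene Usp2 and the glucocorticoid-induced leucine zipper gene Tsc22d3. Usp2 was at 8.96, 9.41 and 9.29 and Tsc22d3 at 10.30, 10.49 and 10.78 in GW4064 replicates 1, 2 and 3. For Sult1d1 the count rests on 1448973_at, where replicate 1 lay only just below replicate 3 (11.44 against 11.48). On 1418138_at these mice were at 9.85 and 10.07.

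Genes with the pattern most like each member over the 6 arrays were sought among the other 86 listed genes, by Pearson's r. Because all were selected for a difference between the groups, high values were built in, and the values are given without a test. Cyp2b10 (1451787_at) was most like Ung (r = 0.99), which encodes the uracil glycosylase of DNA repair, Derl3 (0.98), whose protein serves degradation of misfolded proteins of the endoplasmic reticulum, the kinase gene Ripk4 (0.98), Sec11c (0.98), a signal peptidase subunit, and the acyltransferase gene Lpgat1 (0.98). Their differences were 0.54 (SE 0.12), 1.05 (SE 0.20), 0.71 (SE 0.11), 0.59 (SE 0.15) and 0.87 (SE 0.22), all smaller than that of Cyp2b10. With the group means removed, the closest of the 86 were Lpgat1, Rab4b and Sec11c, each at r = 0.97 over 6 arrays. In all of them, as in Cyp2b10, GW4064 replicate 1 was the highest treated mouse and replicate 3 the lowest. That order was shared by 28 of the 48 listed genes with higher levels, so these values are not particular to these genes. Rab4b, which encodes a small GTPase of endosomes, lies in the same band as Cyp2b10 and was higher by 0.70 (SE 0.18). Sult1d1 stood 39th of 86 for Cyp2b10 with r = 0.84, and 0.17 with the group means removed. In the other direction Cyp2b10 stood 7th of 86 for Sult1d1 at the same r, and 32nd with the group means removed.

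Sult1d1 (1448973_at) was most like Spred1 (r = 0.99), an inhibitor of growth factor signalling through Ras, and Ero1b (0.95), an oxidase of the endoplasmic reticulum. Ung, Saa1 and Saa4 followed at 0.88, 0.87 and 0.87. Vehicle mice had Spred1 levels of 5.84, 5.59 and 5.45, and GW4064 mice had 6.18, 6.33 and 6.09, higher by 0.57 (SE 0.12). Its vehicle mice stood in the same order as on 1448973_at, but not as on the other Sult1d1 probe set, 1418138_at. GW4064 replicate 2 was the highest treated mouse in both genes. The lowest treated mouse was replicate 3 for Spred1 and replicate 1 for Sult1d1. With the group means removed, Spred1 was again first (0.96), followed by Wwox (0.84), an oxidoreductase gene that was lower in GW4064 livers by 0.57 (SE 0.16), and Ero1b (0.84).

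**Figure D5:**
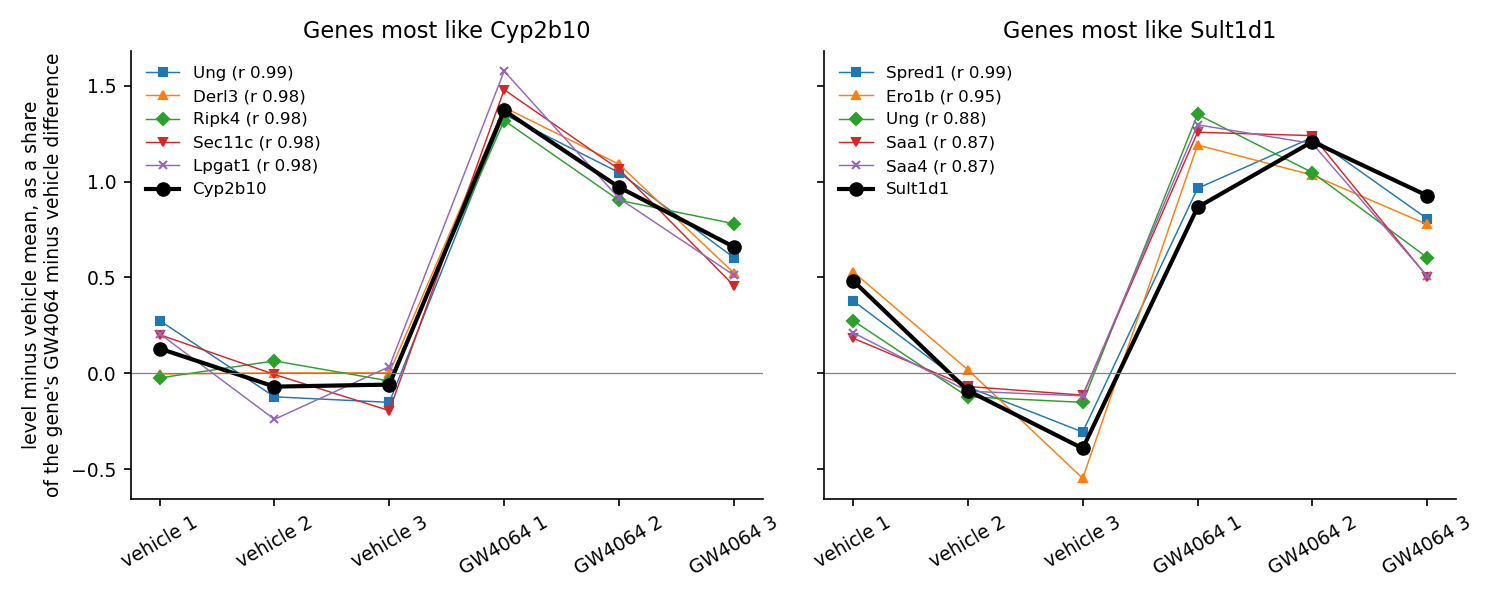
Level minus the vehicle mean, divided by the difference of the group means (y axis, so that the GW4064 mice average 1), in each mouse (x axis) for Cyp2b10 and Sult1d1 (black) and the 5 listed genes of highest Pearson's r with each. GW4064 replicate 1 is the highest treated mouse for Cyp2b10 and the lowest for Sult1d1.

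Other genes of xenobiotic metabolism could be followed only where the authors' list named them. None of 10 genes for CAR, PXR and their partners, none of 36 further CAR targets, and none of 39 other cytochrome P450 genes of families 1 to 3 was paired with a probe set. The same held for 19 glucuronosyltransferases, 20 glutathione S-transferases and 28 other phase 1 enzymes. Cyp2b10 was the only paired gene of 5 in the Cyp2b family, and Sult1d1 the only one of 17 sulfotransferase and sulfate donor genes. Absence from the list does not mean that a gene was unchanged. Of 18 genes on a list drawn up as FXR targets, 3 were paired. Nr0b2 and Cyp2b10 met the fold and unadjusted p threshold as higher and Cyp8b1 as lower. Whether FXR acts directly on Cyp2b10 was not tested. Of 18 genes on a list drawn up as induced by fasting in mouse liver, 2 were paired, Cyp2b10 higher and Igfbp1 lower. Of 24 acute phase genes 5 were paired, all 5 higher by that threshold with a median of 2.51. Of 14 glucocorticoid-induced genes 6 were paired, 5 of them higher and 1 lower. These lists share genes, so their counts are not separate. Cyp2b10 was counted in the Cyp2b, FXR target and fasting lists. Igfbp1 was in the fasting and glucocorticoid lists, and Lcn2 in the acute phase and glucocorticoid lists. The median over the listed probe sets with a single symbol was 0.59. Since a gene could be paired only by passing the authors' threshold on these mice, these counts follow from that choice and say nothing of the unpaired genes. Over all tested probe sets 0.632% met the threshold as higher, and 57 of the 99 listed probe sets with a single symbol had a higher mean. No paired gene of any list passed the adjusted threshold.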

How the data were processed

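Liver RNA of 3 GW4064 and 3 vehicle mice was hybridized to 1 Affymetrix array per mouse. The authors deposited log2 expression levels per probe set, made with Affymetrix Power Tools and already normalized between arrays (medians 5.87 to 5.89). How probes were summarised was not given in the sources used here. Probe set identifiers belong to the Mouse430A_2 design and were read as such, although the labels give Mouse Gene 1.0 ST as the array. Of 22690 probe sets, 64 controls were left out and no filter on dim probe sets was used. The groups were compared in R 4.3.3 with limma 3.58.1 (lmFit, eBayes, two-sided, no covariate), with Benjamini-Hochberg adjustment over 22626 probe sets. Code for limma was tested on simulated data, and that for the permutation test on a made-up example of 3 against 3 values. The small number of arrays limits the precision, and no depth applies to arrays.

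Probe sets were paired with genes only through the authors' list of 110 probe sets, 99 of which had a single symbol. Its fold changes and directions were not used. Entrez identifiers were matched to RefSeq genes of GRCm38.p6 for current symbols. The members, the 15 gene lists (225 genes) and the rules were chosen with earlier results of these data known. Named genes were all member probe sets, the 5 listed genes with the highest Pearson's r with each member and the 3 with the highest r after removal of group means, and up to 4 genes per list. A gene with several probe sets was taken by its brightest. Genes of lists outside drug metabolism are given mainly as counts. Alternatives were a replicate block, quantile normalization, omission of dim probe sets, another prior, array weights, the methods' unpaired test and omission of each mouse. Samples were grouped by their titles, which give a group and a number, and each number within a group was read as a separate mouse.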

Additional observations from a re-analysis of the deposited data

How the results depend on the processing

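Each of the 5 member probe sets kept its direction and stayed short of the adjusted threshold under every alternative, apart from the 3 Cyp2b10 probe sets without GW4064 replicate 3. Since no member overlapped between the groups, omission or weighting of mice could not turn a direction. With all 6 arrays the differences ran from 1.31 to 1.39 (1451787_at), 1.48 to 1.58 (1425645_s_at), 1.38 to 1.47 (1422257_s_at), 0.61 to 0.63 (1448973_at) and 0.59 to 0.61 (1418138_at), with adjusted p-values by limma or the methods' unpaired test of 0.095 to 0.745. Without 1 mouse they ran from 1.13 to 1.62, 1.30 to 1.84, 1.21 to 1.71, 0.49 to 0.75 and 0.50 to 0.78, lowest for Cyp2b10 without GW4064 replicate 1, and highest for Sult1d1 without vehicle replicate 1. Both Sult1d1 probe sets fell below 1.5-fold in several of these omissions. The lowest folds were 1.40 for 1448973_at without vehicle replicate 3 and 1.42 for 1418138_at without vehicle replicate 2. Probe sets at an adjusted p under 0.05 numbered 0 to 70 without 1 mouse. At 1.5-fold and unadjusted p under 0.05, 143 were higher and 140 lower, 59 and 38 by the methods' unpaired test, which borrows no spread across probe sets, and 90 to 247 and 68 to 326 without 1 mouse. The cause was not tested.

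Between Cyp2b10 probe sets the gaps ran from 0.04 to 0.17, 0.12 to 0.31 and -0.048 to 0.18 without 1 mouse, the last turning sign without vehicle replicate 2. Between Cyp2b10 and Sult1d1 they ran from 0.44 to 1.26. With the replicate number as a block the adjusted p-values by limma were 0.222, 0.095 and 0.228 for 1451787_at, 1425645_s_at and 1422257_s_at and 0.361 and 0.442 for Sult1d1, with 0 calls. The titles name no pairing, and the deviations of same-numbered mice correlated at -0.002, 0.05 and -0.03, so the block was not taken as a pairing and changed no call.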
